A study of Arabidopsis thaliana with 36 samples.

Results

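The 108 genes described here rose in wild-type (WT) Arabidopsis seedlings after a single heat stress (HS), rose much less in a mutant of the Mediator kinase CDK8, and kept their level in a mutant of the heat shock factor HSFA2. They were chosen from these libraries. Levels are in CPM, a gene's count per 1000000 gene counts of its library, averaged over the 3 libraries of a group. Of 36632 genes, 11698 had at least 5 CPM in WT after HS on day 7 only (T), and 427 of these were at least 3 times their WT level without HS (NHS). Among the 427, 154 were in cdk8 at T at most 0.5 times the WT level, 130 of those were in hsfa2 at T at least 0.8 times the WT level, and 109 of those were in cdk8 at NHS at least 0.6 times the WT level. AT5G03720 was left out, which leaves 108 genes, called the members below. With CPM scaled by TMM, the scaling of the tests below, the same limits gave 188 genes, 105 of them shared with the 108. The 318 genes that met the WT criteria and were not members are called the other first-heat genes.

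The 3 genotypes were Col-0 (WT) and the T-DNA insertion lines hsfa2 and cdk8 in the Col-0 background, with 1 line for each mutated gene. An effect of losing the gene and any other difference of that line from Col-0 cannot be told apart. Seedlings grown on plates received HS in a water bath, 1 h at 37 °C, on day 5 (P, for priming), on day 7 (T), on both days (P + T) or on neither day (NHS). Whole seedlings of all groups were collected on day 7, so T and P + T were sampled after HS on that day while P was sampled after 2 days without HS. Each of the 12 groups had 3 biological replicates, and p-values measure the spread between these samples.

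Mediator is the multiprotein bridge between transcription factors and RNA polymerase II. Its kinase module, built from CDK8 with a C-type cyclin, MED12 and MED13, binds reversibly to the core complex, and in plants as in yeast and animals it can help or hinder the transcription of particular genes. Heat shock factors (HSFs) are the DNA-binding proteins that turn on the heat response, those of class A as activators and those of class B mostly as repressors. HSFA2 is itself induced by heat and is known for prolonging the response and for heat stress memory.

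Between 29409330 and 31224343 read pairs were counted on genes per library. CDK8 itself stood at 23.5, 17.7 and 19.6 CPM in WT and 4.47, 3.76 and 4.01 CPM in cdk8 at P + T, and HSFA2, which in hsfa2 carries an insertion and still gave reads, at 2800.0 ± 223 CPM (SD, n = 3) in WT and 674 ± 38.3 CPM in hsfa2, a difference that did not pass (log2FC -2.05 ± 0.71, adjusted p = 0.0915). In cdk8, HSFA2 stood at 1020 ± 111 CPM at P + T, a difference from WT that did not pass (log2FC -1.63 ± 0.7, adjusted p = 0.117). Single libraries of HSFA2 were nevertheless apart at P + T, with 2570, 3020 and 2820 CPM in WT. Those of cdk8 had 900, 1060 and 1120 CPM and those of hsfa2 630, 701 and 691 CPM, all below WT. At T the group means of HSFA2 were 4760 CPM in WT and 1450 CPM in cdk8. Photosynthesis markers of the shoot were abundant in every group, root markers were present, and the flower markers AG and AP1 stayed at or below 0.143 CPM in group means. Seed storage transcripts (SESA1 and CRA1), which a seedling should have lost, summed to 6.78 to 2630 CPM in the 12 cdk8 libraries and 0.449 to 51.1 CPM in the 24 others. At P + T the 3 cdk8 libraries had 33.1, 395 and 1320 CPM of them, and the median member stood there at 0.415, 0.363 and 0.384 times the WT mean. The part of these transcripts, or of what they mark, in the members' levels was not tested. Whether fewer cells of a kind or less RNA per cell lowered a transcript cannot be told apart in whole seedlings. In cdk8 at P, replicate 1 stood apart, with 19.9 CPM of HSFA2 against 0.291 and 0.691 CPM in the others. Results of members that rest on it are given with and without it, while the HSFA2 tests are given only with it.

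The values that chose the members are a description and were not tested. In WT at T the members ran from 5.02 to 3400 CPM with a median of 57.9 CPM, and 46 of the 108 reached 100 CPM. Without HS, 32 were under 1 CPM. The cdk8 level at T was 0.00159 to 0.499 times that of WT, with a median of 0.258, and 29 members were in cdk8 at T under 1.5 times their cdk8 level at NHS. The hsfa2 level at T was 0.806 to 1.63 times that of WT. The members closest to the limit on cdk8 were AT4G38060 and PPI2 (proton pump interactor 2), both at 0.4995 times WT, and the closest genes left outside were KIN1, at 0.5011 times, and AT3G14890, at 0.5021 times. Together the members took up 2.82 to 2.95% of all counts in WT at T, 2.88 to 3.07% in hsfa2 and 0.737 to 0.842% in cdk8.

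The limits above used no P or P + T library, so the second HS shows whether the difference recurred in other seedlings of the same lines. It did, though the members were chosen with earlier results of these data known. At P + T every member had a fitted level below WT in cdk8, with a median log2 fold change (log2FC) of -1.54, and 102 of 108 passed an adjusted p-value of 0.05 (11.8% of all genes tested). All log2FC are from 1 edgeR quasi-likelihood fit of the 12 groups with TMM scaling, given ± SE, with p-values adjusted by the Benjamini-Hochberg method over the 20847 genes tested. Of the 102, 86 members were also lower by more than 1 log2 unit, the size required for a call here, and none was higher by either rule. Over all genes tested 5.95% were called lower and 1.48% higher in this comparison (6.36% higher by adjusted p-value alone), with a median of 0.02. Of the other first-heat genes 60 of 318 were lower and 1 was higher by the same rule, with a median of -0.30. These include all first-heat genes above the limit on cdk8 at T, so their smaller difference may come in part from the choice. The number called also depends on scaling. With library size alone in place of TMM, 76 members were called lower, as were 1003 of the 20847 genes tested. The median of all genes tested was then 0.20.

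Single libraries showed the same picture. All 3 cdk8 libraries lay below all 3 WT libraries at P + T for 105 of 108 members, against 11.2% of all genes tested and 127 of 318 other first-heat genes. The median member stood at 44.1 CPM in WT, 44.0 CPM in hsfa2 and 18.2 CPM in cdk8, and the ratio of cdk8 to WT ran from 0.00252 to 0.874 with a median of 0.389. At most 0.5 times WT were 76 members in cdk8, and no member reached the WT mean. In hsfa2 at P + T, 96 members were at least 0.8 times WT, and 65 met both limits. For the other first-heat genes the hsfa2 ratio had a lower quartile of 0.76 and a median of 1.03. A ratio of at least 0.8 in hsfa2 was therefore common there too. Their cdk8 ratio had a lower quartile of 0.662 and a median of 0.921. The shares of all genes tested within these limits were not counted. The 6 members that missed the adjusted p-value in cdk8 were the zinc finger gene STZ (log2FC -0.63, adjusted p = 0.205), 3 genes of small heat shock proteins given below, AT2G37440 (-0.36, adjusted p = 0.26) and AT4G27657 (-0.67, adjusted p = 0.0537). In the fit that blocks by replicate number, AT4G27657 passed (adjusted p = 0.016).

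**Figure D1:**
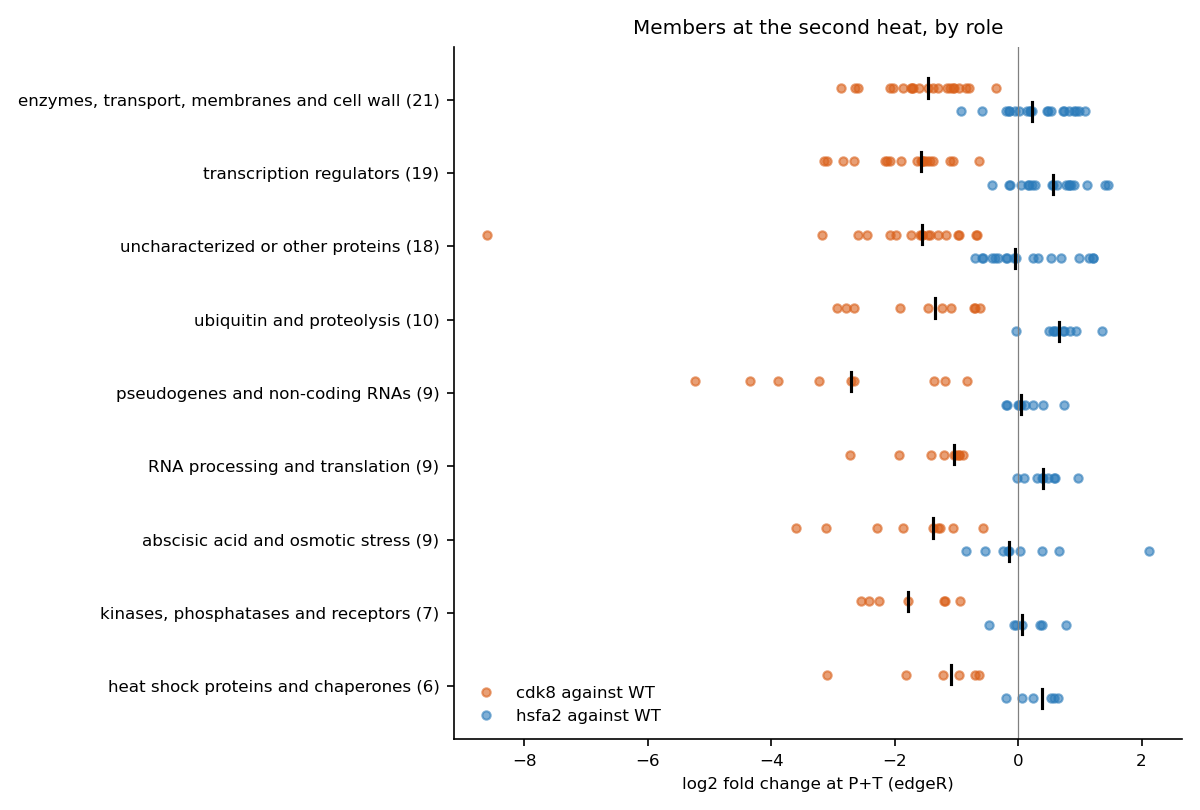
Log2 fold change of every member in cdk8 against WT and in hsfa2 against WT at P + T (horizontal axis), one row of points for each of the 9 groups of roles. The cdk8 points lie at or left of -0.36 in every group, while the hsfa2 points lie on both sides of 0.

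Regulators of transcription made up 19 of the members, and 18 of the 19 were called lower in cdk8 at P + T, with a median log2FC of -1.57. Of these, 4 are HSFs. HSFA7A (AT3G51910), a class A factor induced by heat, had 371, 337 and 312 CPM in the WT libraries at P + T, 206, 164 and 168 CPM in cdk8 and 924, 875 and 889 CPM in hsfa2. The 3 genotypes did not overlap, cdk8 being lowest and hsfa2 highest (log2FC against WT -1.10 ± 0.14, adjusted p = 2.46e-07, and 1.41 ± 0.14, adjusted p = 4.39e-09). Its close relative HSFA7B (AT3G63350) had 343, 328 and 346 CPM in WT, 119, 121 and 132 CPM in cdk8 and 619, 561 and 657 CPM in hsfa2. The cdk8 libraries were again the lowest without overlap (-1.63 ± 0.43, adjusted p = 0.00859, or 9.49e-05 without replicate 1 of cdk8 at P). Every hsfa2 library was above every WT library, but the rise in hsfa2 did not pass (0.86 ± 0.43, adjusted p = 0.283).

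The class B factors HSFB1 (HSF4 in RefSeq, AT4G36990) and HSFB2A (AT5G62020) were lower in cdk8 and near WT in hsfa2. HSFB1 had 826, 752 and 771 CPM in WT and 973, 781 and 860.2 CPM in hsfa2 against 316, 288 and 354 CPM in cdk8, the lowest without overlap (-1.47 ± 0.13, adjusted p = 3.04e-10). For HSFB2A the values were 176, 198 and 162 CPM, 179, 160.1 and 145 CPM and 80.6, 62 and 65.1 CPM in the same order (-1.54 ± 0.15, adjusted p = 1.37e-09). DREB2A (AT5G05410), which binds the dehydration-responsive element and activates drought and heat genes, had 382, 368 and 386 CPM in WT and 210.1, 207 and 199.9 CPM in cdk8, with no overlap (-1.06 ± 0.17, adjusted p = 1.96e-05). DREB2A overlaps AT5G05420 on the opposite strand, and reads of such pairs cannot be told apart where the strand setting of the counting is unknown.

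Outside the HSFs the loss was deepest for NFXL1 and a Dof-type zinc finger gene. NFXL1 (AT1G10170), a zinc finger protein known from salt and defence responses, had 779, 714 and 699.5 CPM in WT at P + T and 1116, 1073 and 1169 CPM in hsfa2 against 95.7, 94.1 and 90.3 CPM in cdk8. Its cdk8 libraries were far below the others and the hsfa2 libraries were all above WT (-3.14 ± 0.15, adjusted p = 5.23e-16, and 0.63 ± 0.14, adjusted p = 0.00411). In WT, NFXL1 stood at 93.5, 94.9 and 78.7 CPM at P and in cdk8 at 105, 92.8 and 92.1 CPM (P + T against P in cdk8, log2FC 0.58, adjusted p = 0.000843). Its CPM in cdk8 overlapped between P and P + T, so the rise in the fit came with the TMM scaling. NFXL1 overlaps AT1G10180 on the same strand. The Dof gene AT4G00940 had 38.5, 37.4 and 36.1 CPM in WT and 4.41, 5.35 and 4.94 CPM in cdk8 (-3.10 ± 0.14, adjusted p = 4.39e-17).

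The C2H2 zinc finger proteins ZAT6, ZAT10 (STZ) and ZAT12 (RHL41) regulate abiotic stress responses and are induced within minutes to hours of many stresses. ZAT6 (AT5G04340) had 116, 111 and 104 CPM in WT and 32.4, 23.3 and 29.7 CPM in cdk8 (-2.13 ± 0.21, adjusted p = 5.16e-09), and ZAT12 (AT5G59820) had 43.4, 72 and 47.1 CPM and 16.2, 12.1 and 13.1 CPM (-2.15 ± 0.28, adjusted p = 1.12e-06). Both were lower in every cdk8 library than in any of WT. ZAT10 (AT1G27730) had 56, 64.1 and 49.4 CPM in WT and 46.1, 37.2 and 39.9 CPM in cdk8, which did not pass. Lower in cdk8 were also MYB102, a MYB factor known from wounding and osmotic stress (-2.84), NAP, a NAC factor of leaf senescence (-2.65), the bromodomain gene GTE2 (-2.07), the LOB domain gene ASL5 (-1.56), the bHLH genes AT3G22100 (-1.42) and AT4G29930 (-1.53), and the AP2/ERF genes CRF7 (-1.37), AT4G18450 (-1.90) and AT5G52020 (-1.57). GTE2 overlaps genes on the opposite strand.

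**Figure D2:**
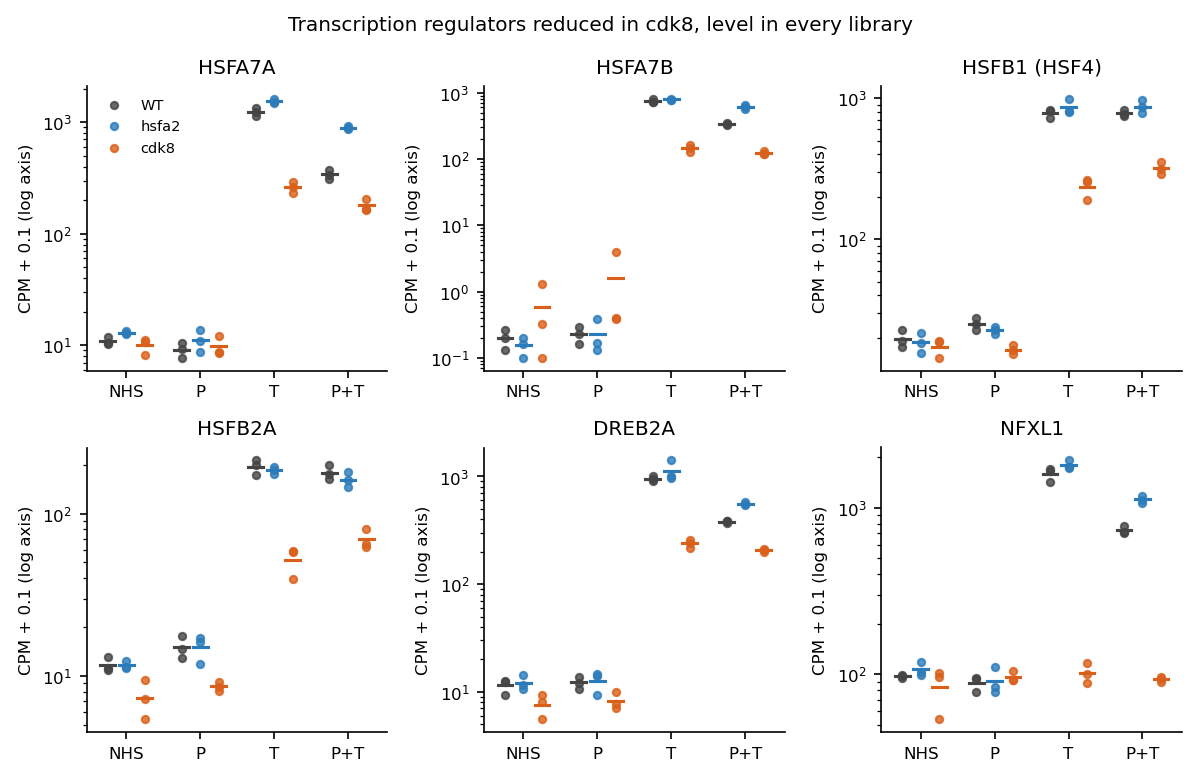
CPM of regulators among the members in each library (points) with the group mean (line), for the 3 genotypes and 4 treatments, on a log axis. In WT and hsfa2 the genes are low at NHS and P and high at T and P + T, and at T and P + T the cdk8 points lie below those of WT.

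Stretches upstream of 10 members show what elements their promoters hold. Windows of 250 bases before the annotated gene start were read from the TAIR10.1 genome of RefSeq, and each motif was searched on both strands. HSFs bind repeats of GAA and TTC. The short heat shock element (GAANNTTC or TTCNNGAA) was in 24 members, or 22.2%, against 25.2% of the other first-heat genes and 15.6% of all genes tested. The element of 3 units (GAA, TTC and GAA, or TTC, GAA and TTC, with 2 bases between units, which contains the short one) was in 7 members, or 6.48%, against 2.83% and 0.422%. This longer motif was searched after the shares of the shorter one had been seen. The 7 are shown because they include 3 of the regulators above, with the element in capitals, on the strand of the gene.
DREB2A, chr5:1602021-1602073, plus strand: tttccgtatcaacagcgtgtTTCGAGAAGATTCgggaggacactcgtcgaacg
HSFA7A, chr3:19264979-19265031, plus strand: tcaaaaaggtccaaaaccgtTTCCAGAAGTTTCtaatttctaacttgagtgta
HSFA7B, chr3:23399059-23399111, plus strand: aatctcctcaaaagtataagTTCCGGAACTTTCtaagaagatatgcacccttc
AT1G71000, chr1:26770271-26770323, minus strand: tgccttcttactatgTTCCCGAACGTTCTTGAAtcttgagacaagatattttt
BI1, chr5:19135851-19135903, plus strand: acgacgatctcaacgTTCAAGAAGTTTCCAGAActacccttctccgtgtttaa
ftsh4, chr2:11135516-11135568, minus strand: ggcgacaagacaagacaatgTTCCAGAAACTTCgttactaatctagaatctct
DIP2, chr5:763481-763518, minus strand: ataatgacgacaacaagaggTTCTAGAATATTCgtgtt
The capitals of AT1G71000 and BI1 run over 4 units. All 7 genes were called lower in cdk8 at P + T, with log2FC between -3.10 and -1.06.

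The dehydration-responsive element (DRE, ACCGAC or GCCGAC), to which DREB2A binds, was in 19 members, or 17.6%, against 13.8% of the other first-heat genes and 7.76% of all genes tested. It is shown for the ZAT genes that hold it and for GolS2, which is described below, with the element in capitals and, for GolS2, on the other strand.
GolS2, chr1:21207421-21207466, plus strand: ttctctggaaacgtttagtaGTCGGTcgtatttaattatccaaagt
ZAT6, chr5:1217493-1217538, minus strand: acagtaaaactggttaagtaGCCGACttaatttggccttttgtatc
STZ, chr1:9649333-9649378, minus strand: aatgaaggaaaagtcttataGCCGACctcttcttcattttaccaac
The abscisic acid responsive element (ABRE, ACGTG) was in 33.3% of members, against 30.8% and 24.0%. The W-box (TTGAC) was in 43.5% against 50.9% and 44.9%, the CGCG box in 15.7% against 12.3% and 10.8%, and the mitochondrial dysfunction motif (CTTG, 5 bases and CAAG or CACG) in 1.85% against 1.89% and 0.945%. The last of the DRE examples, STZ, was not called in cdk8 at P + T while GolS2 and ZAT6 were. A match of letters is a description of the window and not a binding site.

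**Figure D3:**
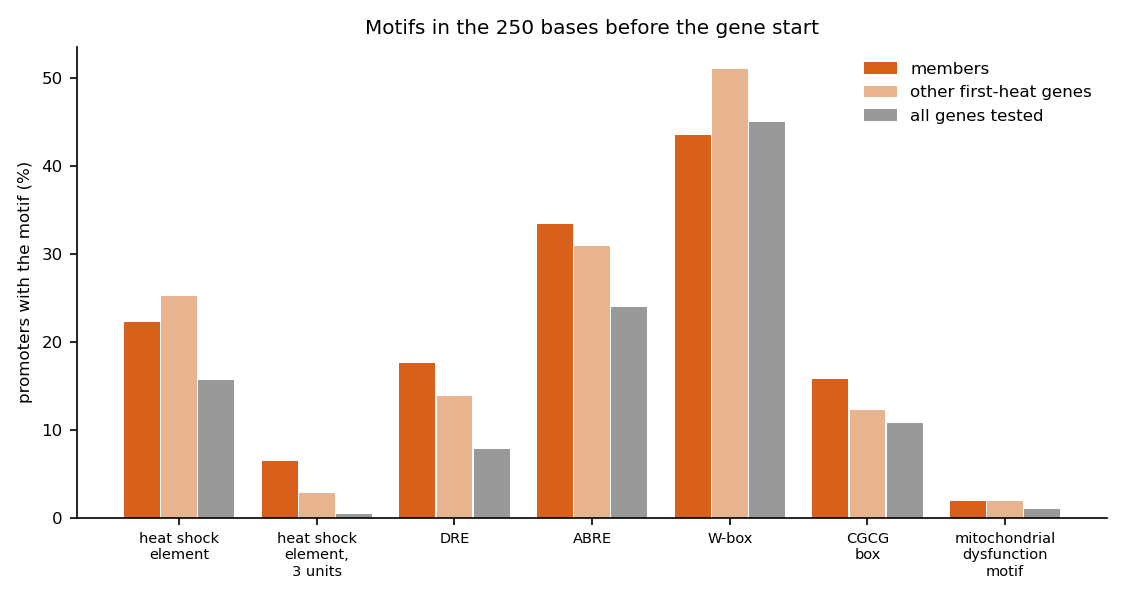
Percent of promoters of 250 bases that hold each motif (vertical axis), for members, other first-heat genes and all genes tested. Heat shock elements, DRE and ABRE are more frequent in both heat-induced sets than in all genes tested, and the 3-unit element stands at 6.48% in members against 0.422% in all genes.

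Of 6 members that are small heat shock proteins or chaperones, 3 were called lower in cdk8 at P + T, and these were the DnaJ-domain genes. AT1G71000 had 747, 839 and 681 CPM in WT and 1222, 1172 and 1113 CPM in hsfa2 against 97.2, 107 and 93.4 CPM in cdk8. The cdk8 libraries were lowest without overlap (-3.10 ± 0.66, adjusted p = 0.00116, or 7.14e-06 without replicate 1 of cdk8 at P). AT1G72416 was lower as well (-1.81 ± 0.24, adjusted p = 1.53e-06), as was AT5G03030 (-1.21 ± 0.13, adjusted p = 2.72e-08), which overlaps other genes.

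The 3 members of the HSP20 family, small heat shock proteins that hold unfolded proteins, did not pass. AT5G51440, the most abundant member at T, had 2579, 2750.1 and 3119 CPM in WT at P + T and 1474, 1605 and 1865 CPM in cdk8 (-0.95 ± 0.42, adjusted p = 0.12). AT2G19310 had 651, 708 and 970.4 CPM and 430.1, 546 and 657 CPM (-0.70 ± 0.27, adjusted p = 0.0731, or 0.00959 in the fit that blocks by replicate number). AT5G37670 had 720.0, 748 and 699 CPM and 540.1, 506 and 529 CPM (-0.64 ± 0.24, adjusted p = 0.0595, or 0.044 in the blocked fit). The cdk8 libraries of AT5G51440 and AT5G37670 were all below those of WT, while the highest for AT2G19310 reached the lowest of WT. Without replicate 1 of cdk8 at P the adjusted p became 0.0404 for AT5G51440 and 0.0284 for AT5G37670.

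Of the members, 9 act in abscisic acid (ABA) turnover or osmotic protection. All 9 passed the adjusted p-value at P + T and 8 were called, with a median of -1.37. COR47 (AT1G20440), a dehydrin that protects cells during drying and cold, had 2658, 2696 and 2904 CPM in WT and 2648, 2287 and 2514 CPM in hsfa2 against 863, 832 and 864 CPM in cdk8. It was lower in each cdk8 library than in any other (-1.87 ± 0.13, adjusted p = 2.26e-12). GolS2 (AT1G56600), a galactinol synthase that starts the making of raffinose sugars, had 141, 156 and 134 CPM, 154, 151 and 133 CPM and 32, 36.5 and 31.1 CPM in the same order (-2.29 ± 0.27, adjusted p = 1.75e-07).

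Both synthesis and breakdown of ABA were represented. NCED3 (AT3G14440), the rate-limiting enzyme of ABA synthesis under drought, fell least, from 25, 26.3 and 22.3 CPM in WT to 21.5, 16.1 and 18.3 CPM in cdk8 (-0.57 ± 0.16, adjusted p = 0.00892). CYP707A4 (AT3G19270), an ABA hydroxylase that degrades the hormone, fell from 36.1, 30.4 and 23.9 CPM to 3.62, 2.69 and 2.12 CPM (-3.59 ± 0.25, adjusted p = 2.65e-12), and its relative CYP707A3 was lower by less (-1.37). HAI2, a protein phosphatase that damps ABA signalling (-3.11), the aquaporin gene RD28 (-1.30), the vacuolar ion exchanger NHX2 (-1.06) and RAS1 (-1.26) were also lower in cdk8. RD28 shares 93.7% of its sequence with PIP2B over the aligned stretch, so its counts may be split with that gene. Without replicate 2 of cdk8 at P + T the fall of NCED3 no longer passed (log2FC -0.48).

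Of the members, 10 act in ubiquitin-dependent or other protein breakdown, and all 10 were lower in cdk8 at P + T by the adjusted p-value, 7 of them called. ftsh4 (AT2G26140), a protease of the inner mitochondrial membrane, had 318, 264 and 283 CPM in WT and 437, 384 and 448 CPM in hsfa2 against 119, 116 and 120.5 CPM in cdk8. The genotypes did not overlap (-1.46 ± 0.10 in cdk8, adjusted p = 4.93e-13). The polyubiquitin gene UBQ14 (AT4G02890) had 272, 239 and 340.0 CPM, 534, 515 and 588 CPM and 226, 204 and 203 CPM (-0.62 ± 0.16, adjusted p = 0.00504), overlaps 2 genes on the opposite strand, and did not pass without WT replicate 3 at P + T (log2FC -0.40). The stress-associated AN1 zinc finger gene PMZ (-2.94), the F-box gene EDL3 (-2.79), the ligase gene DIP2 (-2.65) and the RING genes AT1G20823 (-1.91), AT1G14200 (-1.24) and RHA2B (-1.09) were called, while the conjugating enzyme UBC11 (-0.69) and the UFD1 family gene AT4G15420 (-0.71) passed the adjusted p-value alone.

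The 7 kinases, phosphatases and receptors all passed the adjusted p-value in cdk8 at P + T, 6 of them called, with a median of -1.78. The deepest was PDLP8, a plasmodesmata protein with a receptor-like outer part, at 31.1, 28.5 and 25 CPM in WT and 5.66, 5.69 and 4.94 CPM in cdk8 (-2.55 ± 0.15, adjusted p = 1.84e-14). The others were the lectin receptor kinase gene AT3G59730 (-2.41), RLP21 (-2.25), the kinase genes AT1G72760 (-1.78) and AT3G06630 (-0.94), the resistance gene AT1G66090 (-1.20) and the phosphatase gene AT3G62260 (-1.18). Of 9 members in RNA processing and translation all passed the adjusted p-value and 5 were called, with a median of -1.03. The lowest was the RNA-binding gene AT1G72800 (-2.73). Among the others were MAC5A of the spliceosome-associated MAC complex, the splicing factor gene EMB2770 (-1.03), the mitochondrial editing factor MEF1 (-1.20) and the initiation factor SUI1 family gene AT5G54940, which had 834, 1017 and 916 CPM in WT and 539, 508 and 565 CPM in cdk8.

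Of the 21 members that encode enzymes, transporters and proteins of membranes and cell wall, 20 passed the adjusted p-value and 17 were called. FIB (AT4G04020), a fibrillin of the lipid droplets of plastids, had 695, 619.9 and 796 CPM in WT and 1238, 978 and 1311 CPM in hsfa2 against 204, 170.2 and 219 CPM in cdk8, all 3 apart (-2.02 ± 0.16, adjusted p = 1.37e-11). CYP81D11 (AT3G28740), a P450 enzyme induced by oxylipins and foreign chemicals, was unlike it in being lower in both mutants, with 670.0, 716 and 729 CPM in WT and 349.9, 410.3 and 345 CPM in hsfa2 against 115, 146 and 133 CPM in cdk8 (-2.60 ± 0.24 in cdk8 and -0.93 ± 0.23 in hsfa2, adjusted p = 0.00963). It overlaps AT3G28730 on the opposite strand, and its difference in hsfa2 did not pass without hsfa2 replicate 1 at P + T (log2FC -0.86). Also lower in cdk8 were BI1, an inhibitor of cell death in the endoplasmic reticulum (-1.10), the thaumatin family gene AT4G36010 (-2.86), the acid phosphatase gene PAP17 (-2.08) and PPI2 (-0.84). The pfkB-like kinase genes AT1G06030 and AT1G50390 share 92.7% of their sequence over the aligned stretch, so their counts are uncertain.

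Among the 18 members with no described function or another one, 17 passed the adjusted p-value and 14 were called. AT5G25280, a serine-rich protein gene, had 1393, 1413 and 1373 CPM in WT and 506, 387 and 527 CPM in cdk8 (-1.73 ± 0.14, adjusted p = 2.87e-11). AT4G19430, which encodes a protein of unknown function, was nearly absent from cdk8. Its counts were 0 in every library at NHS, 252, 195 and 178 in WT at T, 371, 225 and 203 in WT at P + T and 241, 253 and 185 in hsfa2 at P + T. In cdk8 it had 0, 1 and 0 counts at T and 1, 1 and 0 at P + T. The cdk8 level at P + T was 0.251% of the WT level, with an exact 95% interval of 0.0304 to 0.911% that covers counting error only. The neighbouring genes AT4G19420, AT4G19440 and AT4G19450 had 7.77, 7.55 and 13.6 CPM in WT at P + T and 8.13, 5.86 and 18.4 CPM in cdk8 (group means). Of these AT4G19440 was lower in cdk8 (-0.54 ± 0.16, adjusted p = 0.02), and the other two did not pass (-0.10, adjusted p = 0.837, and 0.27, adjusted p = 0.191). A difference at this locus between the cdk8 line and Col-0 and an effect of CDK8 cannot be told apart.

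Near-identical copies of a sequence, annotated as pseudogenes, made up 5 members. AT1G11265, AT1G21945, AT1G48710, AT3G32415 and AT3G61330 share 97.2 to 99.9% of their sequence over aligned stretches with one another and with 3 copies that are not members (AT1G58140, AT3G59720 and AT5G13205), all named here after their values were seen. Reads that map to several places were not counted, so only reads with a distinguishing base reached these genes and the assignment to one copy is uncertain. AT1G48710, the most abundant, had 34, 24.7 and 24.9 CPM in WT at P + T and 28.5, 27.4 and 27 CPM in hsfa2 against 3.52, 2.66 and 3.85 CPM in cdk8 (-3.23 ± 0.17, adjusted p = 5.52e-15). The 3 copies outside the members were also lower in each cdk8 library than in any WT library. Another 4 members, AT1G11270, AT1G21940, AT3G59730 and AT3G61320, lie next to or overlap a copy. AT1G21940, next to a copy, had 413, 359 and 352 CPM in WT and 121, 96 and 104 CPM in cdk8 (-1.98 ± 0.34, adjusted p = 7.48e-05).

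**Figure D4:**
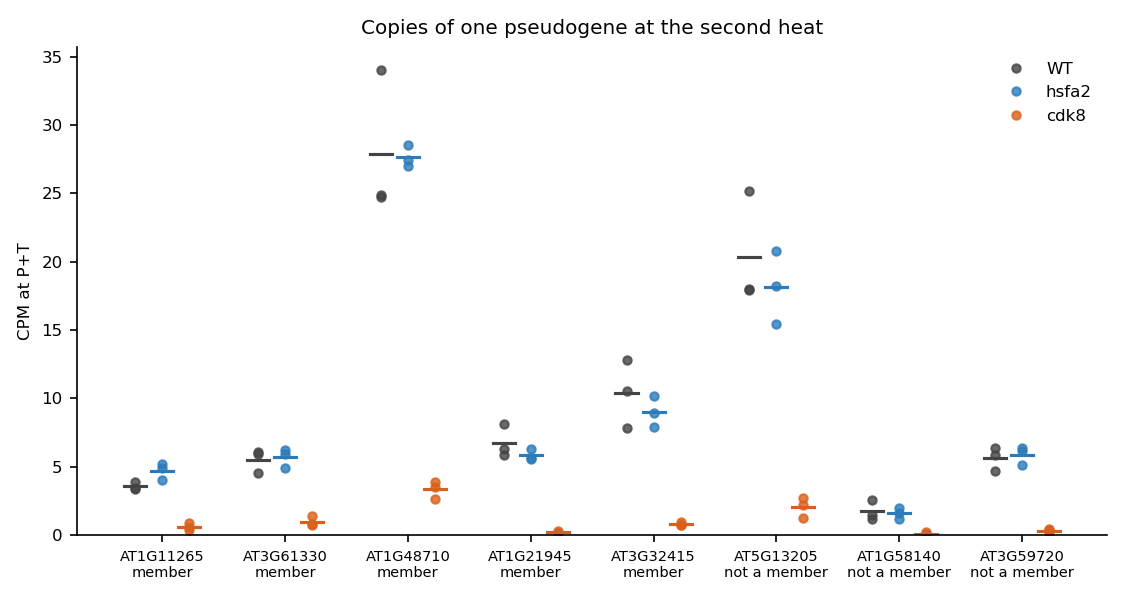
CPM at P + T of 8 near-identical copies annotated as pseudogenes, in each library (points) with the group mean (line), for WT, hsfa2 and cdk8. In WT and hsfa2 the copies range from about 1 to 34 CPM, and in cdk8 each lies below.

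The other pseudogene and non-coding members were AT2G04135, the snoRNA genes AT4G39361 and AT4G39366, and the long non-coding RNA gene AT1G67365. AT2G04135 had 13, 11.1 and 6.51 CPM in WT and 0.855, 0.532 and 0.299 CPM in cdk8 (-4.34 ± 0.40, adjusted p = 1.05e-08). It shares 95.7% of its sequence with AT5G33303 and 93.2% with AT3G29470 over aligned stretches. The snoRNA genes share 90.8 to 94.1% with AT4G39363 or AT4G39364, so the counts of all of these may be split. AT4G39361 and AT4G39366 lie 574 bases apart on the same strand, and whether their reads come from separate transcripts was not tested. Of the 9 pseudogene and non-coding members all passed the adjusted p-value and 8 were called. By annotation 99 of the 108 members were protein-coding, 6 were pseudogenes, 2 snoRNA genes and 1 a long non-coding RNA gene, and 23 overlapped another gene.

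In hsfa2 the members moved little at P + T, and more of them up than down. With a median log2FC of 0.32, 33 of 108 were higher by the adjusted p-value and 5 lower, and 9 were called higher and none lower. Over all genes tested 0.288% were called higher and 1.41% lower, and by the adjusted p-value alone 2.29% were higher and 4.20% lower. All 3 WT libraries lay below all 3 hsfa2 libraries for 50 members (9.02% of all genes tested), and above them for 11 (11.1%). Of the other first-heat genes 7 of 318 were called higher and 31 lower, with a median of 0.05. The choice had left out genes under 0.8 times WT in hsfa2 at T and set no upper limit. The excess of higher over lower members, and its contrast with the other sets, may therefore come in part from the choice, which was not tested.

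Regulators of transcription were 9 of the 33. Beside HSFA7A and NFXL1 they were AT4G18450 (1.46), CRF7 (1.11), ZAT6 (0.91), GTE2 (0.83), AT4G00940 (0.82), MYB102 (0.78) and DREB2A (0.56, adjusted p = 0.0382). DREB2A did not pass when any of the 6 WT and hsfa2 libraries at P + T was left out (log2FC 0.50 to 0.63), and MYB102 did not pass without WT replicate 2 or hsfa2 replicate 1 or 2 (0.71 to 0.75). The highest member was RAS1, a regulator named for its response to ABA and salt, at 3.98, 4.81 and 3.34 CPM in WT and 19.9, 13.7 and 18.6 CPM in hsfa2 against 2.83, 1.06 and 1.82 CPM in cdk8. Its hsfa2 libraries stood above all others (2.12 ± 0.29, adjusted p = 4.99e-06).

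Protein breakdown genes were 7 of the 33, led by DIP2 (1.36), UBQ14 (0.94) and UBC11 (0.84), and enzyme and membrane genes were 8. The 5 that were lower were CYP81D11, CYP707A4 (-0.84), AT4G24413 (-0.70), LAP3 (-0.58) and PDLP8 (-0.47). CYP707A4 did not pass without WT replicate 1, hsfa2 replicate 2 or hsfa2 replicate 3 at P + T (-0.77 to -0.73). Set against hsfa2 in place of WT, cdk8 was lower for 98 members by the call rule (6.24% of all genes tested) with a median of -1.82, higher for none (2.08%, or 10.3% by adjusted p-value alone), and 106 passed the adjusted p-value (13.5%). STZ and AT4G27657 did not. With library size alone, 89 members were called lower than in hsfa2, as were 1019 of the 20847 genes tested.

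The response to the second HS was read from P + T against P, which compares heated and unheated seedlings that had both been primed. In WT all 108 members rose, with a median log2FC of 4.11, and in hsfa2 all 108 rose, with a median of 4.47. By adjusted p-value alone 30.3% and 30.1% of all genes tested rose in these genotypes. In cdk8, 88 rose and none fell by the call rule, with a median of 2.60. The share of all genes tested that rose was 9.71% in WT, 9.40% in hsfa2 and 7.79% in cdk8. All libraries at P lay below all libraries at P + T for 106 members in WT (8.8% of all genes tested), 108 in hsfa2 (7.74%) and 87 in cdk8 (9.26%). For the other first-heat genes the medians were 4.05, 4.10 and 3.64, and 316, 318 and 310 of 318 rose. These contrasts depend on scaling, since the median of all genes tested was -0.81 in WT, -0.84 in hsfa2 and -0.69 in cdk8 with library size alone, against -0.06, -0.04 and -0.06 with TMM. With library size alone, 104 members rose by the call rule in WT, 108 in hsfa2 and 74 in cdk8.

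For most members the weaker response in cdk8 was itself past the test. The difference between cdk8 and WT in P + T/P was lower by the call rule for 67 members (2.81% of all genes tested) and higher for none (0.187%), with a median of -1.54, and 75 passed the adjusted p-value (4.04%). Without replicate 1 of cdk8 at P it was lower for 55, and 65 passed. With library size alone it was lower by the call rule for 59 members and for 455 of the 20847 genes tested. NFXL1 had the difference -3.21 ± 0.21 (adjusted p = 5.73e-12), AT4G00940 -2.70 ± 0.20, GolS2 -3.71 ± 0.50, COR47 -1.45 ± 0.18 and HSFA7A -1.16 ± 0.20. Without replicate 1 of cdk8 at P that of HSFA7A was -0.94 (adjusted p = 0.0017), which no longer met the size of a call. For HSFA7B it was -5.06 ± 1.02 (adjusted p = 0.0021) and for AT1G71000 -6.39 ± 1.26 (adjusted p = 0.00178), but without replicate 1 of cdk8 at P these became -2.71 (adjusted p = 0.16) and -2.49 (adjusted p = 0.659).

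In cdk8, 100 members were higher at P + T than at P by the adjusted p-value (29.7% of all genes tested), or 87 with library size alone. With TMM, 8 were not. They were the factor NAP, the RNA-binding gene AT1G72800, RLP21, AT2G32210, AT2G36220, AT3G16330, AT4G19430 and GPAT2, an acyltransferase of lipid synthesis, and the last was lower (log2FC -0.65, adjusted p = 0.0471). In hsfa2 the response was stronger than in WT for 7 members by the call rule (0.182% of all genes tested) and weaker for none (0.806%), with a median of 0.32, and 16 passed the adjusted p-value (0.393%). Of the other first-heat genes, 17 of 318, or 5.35%, had a stronger response by the same rule and 15 a weaker one, with a median of 0.24, against 6.48% of members with a stronger one. Among the 16 members were HSFA7A (1.17 ± 0.20, adjusted p = 0.000329) and RAS1 (2.36 ± 0.49, adjusted p = 0.00429). Both mutants were set against the same WT libraries.

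**Figure D5:**
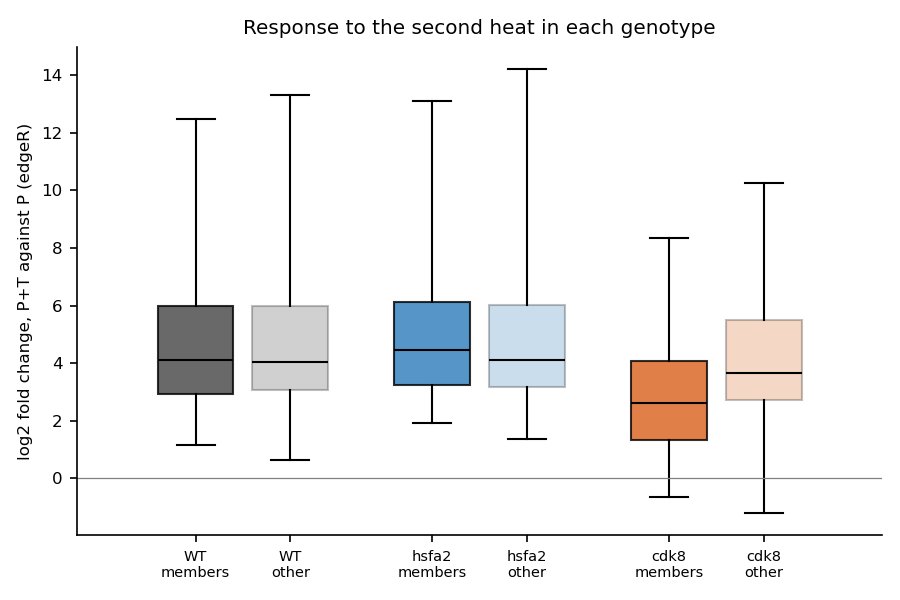
Log2 fold change of P + T against P in each genotype (vertical axis) for members and other first-heat genes. Boxes span the quartiles with the median as a line and whiskers reach the lowest and highest gene. The members' median is 4.11 in WT, 4.47 in hsfa2 and 2.60 in cdk8, and that of the other genes 4.05, 4.10 and 3.64.

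At P, 2 days after a single HS, the members differed little between the genotypes. In cdk8 at P, 2 members were called higher (1.10% of all genes tested) and 2 lower (1.35%), with a median of 0.05, and the adjusted p-value alone was passed by 3 higher (2.61%) and 11 lower (3.63%). All cdk8 libraries lay below all WT libraries at P for 20 members (10.1%). Called lower were the DnaJ-domain gene AT1G72416 (-1.41 ± 0.24, adjusted p = 0.000331) and AT1G48710, annotated as a pseudogene (-1.58 ± 0.48, adjusted p = 0.0394). Lower by less than 1 log2 unit were among others HSFB2A (-0.86), HSFB1 (-0.65), DREB2A (-0.61) and COR47 (-0.42), of which COR47 did not pass without replicate 1 of cdk8 (-0.38, adjusted p = 0.177).

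Called higher at P were GolS2, with 0.865, 0.518 and 0.625 CPM in WT and 1.33, 1.84 and 2.44 CPM in cdk8 (1.42 ± 0.43, adjusted p = 0.0436), and HSFA7B, with 0.0641, 0.194 and 0.132 CPM and 3.87, 0.291 and 0.296 CPM (3.43 ± 0.95, adjusted p = 0.0272). The HSFA7B value came from replicate 1 of cdk8, and without that library its log2FC was 1.08 (adjusted p = 0.705). Without the same library 1 member was called higher and 4 lower. GolS2 itself was no longer called at P when any of the 3 WT libraries at P was left out, since the count of members called higher was then 0. In hsfa2 at P 1 member was called lower, AT5G37670, with 2.72, 4.79 and 5.2 CPM in WT and 1.35, 0.866 and 1.13 CPM in hsfa2 (log2FC -1.97, adjusted p = 0.00113), and none was higher, where 0.149% and 0.0144% of all genes tested were called (0.0288% higher by adjusted p-value alone). At an unadjusted p under 0.05, 9 members were higher and 10 lower in hsfa2 at P, against 612 and 893 of all 20847 genes tested.

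The first and second HS can be set side by side without a test, as the T libraries chose the members. In WT the ratio of P + T to T ran from 0.22 to 3.65 with a median of 0.764. In hsfa2 the median ratio was 0.903 and in cdk8 1.14. For the other first-heat genes the medians were 1.04, 1.12 and 1.17. The choice asked for a high level in WT and a low one in cdk8 at T. That alone may lower the members' ratio in WT and raise it in cdk8, which was not tested. In WT, NFXL1 had 1431, 1653 and 1708 CPM at T, above each of its P + T values, while in cdk8 it had 117, 100.2 and 88.9 CPM at T, close to its P + T values. HSFA7A had 1351, 1241 and 1147 CPM at T in WT and 1516, 1484 and 1616 CPM in hsfa2. These T values took part in the choice, which set no upper limit in hsfa2, and are a description only.

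Related genes were also counted, from lists that do not hold every gene of a family or pathway. Of 21 listed HSFs 19 were tested, 4 of them members, and 7 were called lower in cdk8 at P + T with a median of -0.63, while 1 was called higher and 2 lower in hsfa2. Of 13 small heat shock protein genes, 1 of them a member, 1 was lower in cdk8, with a median of -0.59. Of 6 genes of the DREB2A branch 2 were lower (median -0.22), and of 10 genes of mitochondrial retrograde signalling 1 (-0.46), each list with 1 member. Lists that hold no member were those of cold and ABA response, with 2 of 10 lower (-0.40), of jasmonate, with 3 of 7 tested lower (-0.77), and of the kinase module. Of 6 early stress transcription factor genes tested, 2 of them members, 4 were lower (-1.77). Of the 5 kinase module genes, CDK8 was lower and none was called higher in cdk8, and none was called in hsfa2.

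Gene structure took no part in the choice of the members. Over protein-coding genes the median transcript had 1412 bases and 2 exons in members, 1696 bases and 4 exons in the other first-heat genes, and 1732 bases and 4 exons in all genes tested. Single-exon genes were 31 of 99, or 31.3%, of protein-coding members, 20.2% of the other first-heat genes and 15.5% of all protein-coding genes tested. These lengths and shares were not tested.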

How the data were processed

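Polyadenylated RNA of whole seedlings was sequenced from both ends. The authors aligned the pairs to TAIR10 with STAR 2.7.10a (submitters' processing notes) and deposited them as raw read counts per gene, without normalization. The strand column and annotation version are not given in the sources used here. Pairs outside genes (0.506 to 1.56% of a file), ambiguous, multimapping and unmapped pairs stayed out of library sizes and tests. The tests used edgeR 4.0.16 in R 4.3.3. Genes were kept by filterByExpr (min.count 10, min.total.count 15) and scaled by TMM, and a robust two-sided quasi-likelihood F-test was run on 12 groups. Called genes had adjusted p-values under 0.05 with log2FC beyond 1 in either direction. SE is the absolute log2FC divided by the square root of F. DESeq2 1.42.0, other scaling, filters and thresholds, the replicate block and each library left out were alternatives. Libraries with the same replicate number deviated together (residual correlation of 0.21 to 0.464 for cdk8 and WT at P + T, and 0.279 to 0.57 for hsfa2 and WT). This correlation was at or below 0.1 in a pair for cdk8 and WT at P and for P + T and P in cdk8 and in hsfa2. No replicates were duplicates. Scripts were tested on simulated data. Promoters were read from the RefSeq TAIR10.1 genome, whose chromosome lengths equal TAIR10, and sequence identity came from blastn.

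Members, gene lists and roles were chosen with earlier results of these data known. Genes named were the 12 most abundant members at T in WT, the 3 lowest and 3 highest in each mutant against WT at P + T, regulators of transcription, chaperones, kinases, ubiquitin ligases, hormone enzymes and those next to the limit. Other genes were named after their values were seen.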

Additional observations from a re-analysis of the deposited data

Results flagged for a closer look

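The response to the second HS (P + T against P) differed between cdk8 and WT, by a test of the difference itself, for 67 members, all with a weaker response in cdk8, and between hsfa2 and WT for 7 members, all with a stronger response in hsfa2. In cdk8 the log2 difference was -1.16 for HSFA7A, -5.06 for HSFA7B, -3.21 for NFXL1, -2.70 for AT4G00940, -6.39 for AT1G71000, -3.71 for GolS2 and -1.45 for COR47. For HSFB1, -0.82 passed the adjusted p-value alone and is not among the 67. Without replicate 1 of cdk8 at P, the differences of HSFA7B and AT1G71000 did not pass, and that of HSFA7A, -0.94, passed the adjusted p-value alone. In hsfa2 it was 1.17 for HSFA7A, 2.36 for RAS1, 1.47 for AT2G19310 and 2.02 for AT5G37670, and also 1.38 for AT2G20362, 1.12 for AT4G36010 and 1.04 for AT1G62730, which were named after their values were seen. Neither AT2G19310 nor AT5G37670 differed from WT in hsfa2 at P + T by the adjusted p-value. The larger P + T/P of AT5G37670 came with a lower level at P in hsfa2 (log2FC -1.97).

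Outside the gene counts, 1.42% of read pairs (mean of 3 libraries, range 1.31 to 1.56%) fell outside annotated genes in cdk8 at T, against 1.08% (0.879 to 1.39%) in WT at T. The ranges overlap, and the difference was not tested.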

How the results depend on the processing

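No direction of a member count reversed. Against a minimum log2FC of 1 (glmTreat), 54 members were lower in cdk8 and 1 was higher in hsfa2 at P + T, 0 were higher and 0 lower in cdk8 at P, 0 were lower in hsfa2 at P, and the difference in P + T/P was lower for 26 in cdk8 and higher for 0 in hsfa2. By unadjusted quasi-likelihood p-values under 0.05 in the edgeR test against no change, 10 were higher and 23 lower in cdk8 at P. Of all 20847 genes tested, 1562 were higher and 2006 lower by that rule. Without the filter 1 member was higher in cdk8 at P. DESeq2 gave 4 called lower in cdk8 at P and 2 lower by adjusted p-value in hsfa2 at P. With the replicate number as a block, 2 were lower by adjusted p-value in hsfa2 at P, and 3 members at P + T in cdk8 and 4 in hsfa2 changed their side of the adjusted p-value. With CPM scaled by TMM the rule gave 188 members, 105 of them shared, and limits of 0.4 and 0.6 for cdk8 gave 87 and 139. In windows of 500 bases the short heat shock element was in 43.5% of members, 39.3% of the other first-heat genes and 29.9% of all genes tested, so its order in members and other first-heat genes turned round from that at 250 bases.

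Leaving out single libraries moved the counts as follows. In cdk8 against WT at P + T, 83 to 89 members were called lower, and in hsfa2 8 to 12 higher and 0 to 1 lower, with 2 to 6 lower by adjusted p-value alone. In cdk8 at P, 0 to 2 were called higher and 1 to 4 lower, and by adjusted p-value alone 1 to 4 higher and 7 to 12 lower. In hsfa2 at P, 1 to 2 were lower by adjusted p-value alone. The difference in P + T/P was called lower for 55 to 69 in cdk8, fewest without replicate 1 of cdk8 at P, and in hsfa2 10 to 20 members were higher by adjusted p-value alone. The rule itself gave 99 to 116 members. Depth limits genes near 0 most, so HSFA7B and AT4G19430 have little precision at P.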
